A study of Mus musculus with 4 samples.

Results

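The targets of 8 miRNAs of the imprinted Dlk1-Dio3 cluster were examined in overloaded mouse muscle: mmu-miR-127-3p, mmu-miR-434-3p, mmu-miR-411-5p, mmu-miR-379-5p, mmu-miR-541-5p, mmu-miR-382-5p, mmu-miR-409-3p and mmu-miR-136-5p. They were taken by name, from a choice made with earlier results of these data known, and every line of both processed files that carried one of the 8 names was taken. A line is 1 miRNA in 1 peak, and its value is the number of chimeric reads, each of which joins a miRNA to a fragment of the RNA it was bound to. The 8 miRNAs held 1099 of 93468 lines in the MOV control library and 828 of 100897 lines in the MOV mimic library.

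The assay was chimeric Ago2 eCLIP-seq, in which Ago2, the protein that holds miRNAs on their targets, is crosslinked to RNA and immunoprecipitated. The tissue was the plantaris of 5-month-old male C57BL/6J mice after 10 days of mechanical overload (MOV), a surgery that removes part of the synergist muscles so that the plantaris grows. Per the study's methods, a control lentivirus was injected into the left plantaris. The right plantaris received a virus that carried a miR-1 mimic driven by a CMV promoter. Side and virus cannot be told apart, and whether the 2 muscles used here came from the same mouse is not stated. Both groups therefore carried the overload and a lentiviral vector, and a whole muscle was sampled, not 1 cell type. Each group had 1 library, so no difference between conditions could be tested, and the intervals below (95%) cover counting error only. The 2 input libraries were not analysed here. The libraries held 232408 and 259207 chimeric reads, and miR-1a-3p itself held 27411 reads in the control library and 35876 in the mimic library. Most lines held less than 1 read, 55.5% in the control against 56.3% in the mimic, because the deposited values are mostly fractions. How the fractions arose is not given in the sources used here, so the intervals treat sums of them, rounded, as counts.

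The Dlk1-Dio3 region of mouse chromosome 12 is imprinted: Dlk1, Rtl1 and Dio3 are expressed from the paternal chromosome, and the long noncoding RNAs Meg3, Rian and Mirg, with a large cluster of miRNAs, from the maternal one. The miRNAs are cut from long maternal transcripts, so they tend to be made together. A miRNA finds its targets mainly through its seed, the bases near its 5′ end that pair with the target. In muscle the cluster is known from stem cells and regeneration, where its miRNAs are more abundant than in mature fibres.

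The mature sequences are shown because the 8 miRNAs come from 1 locus but differ in what they can pair with. All are on the plus strand of chromosome 12 in GRCm38.p6, from RefSeq, between Dlk1 and Dio3. Bases 2 to 8, the seed, are in capitals.
miR-127-3p: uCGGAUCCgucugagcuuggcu
miR-434-3p: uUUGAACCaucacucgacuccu
miR-136-5p: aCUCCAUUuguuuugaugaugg
miR-379-5p: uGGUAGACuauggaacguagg
miR-411-5p: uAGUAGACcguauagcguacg
miR-382-5p: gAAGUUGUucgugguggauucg
miR-541-5p: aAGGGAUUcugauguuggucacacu
miR-409-3p: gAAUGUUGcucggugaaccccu

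They are listed in their order along the chromosome. The mature miR-127-3p lies at chr12:109592888-109592909, miR-434-3p at chr12:109594565-109594586 and miR-136-5p at chr12:109595331-109595352, all opposite to Rtl1, a retrotransposon-derived gene on the other strand. The other 5 lie downstream, from miR-379-5p at chr12:109709065-109709085 to miR-409-3p at chr12:109743204-109743225, and miR-541-5p and miR-409-3p lie within Mirg. All 8 seeds differ. The nearest pair is miR-379-5p and miR-411-5p, whose seeds share 6 of 7 bases and differ only at base 2 of the miRNA. No other miRNA named in the files was found in the RefSeq table with the seed of any of the 8.

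Of the 8, miR-127-3p held most of the reads. It had 1093 reads (1029 to 1160) on 485 lines in the control library and 682 reads (632 to 735) on 364 lines in the mimic library. The miRNAs next in order were miR-411-5p, with 205 reads (178 to 235) and 129 reads (108 to 153), and miR-379-5p, with 161 reads (137 to 188) and 150 reads (127 to 176). The intervals of miR-411-5p did not overlap between the libraries, and those of miR-379-5p did.

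The remaining 5 were rare. miR-541-5p had 55.0 reads in the control against 49.6 in the mimic, miR-434-3p 49.4 and 25.3, miR-136-5p 46.3 and 24.3, miR-382-5p 40.0 and 30.5, and miR-409-3p 15.4 and 7.74. In the control the intervals of the first 4 overlapped one another, so their order was not settled at this depth. In the mimic the interval of miR-541-5p (37.1 to 65.9) lay just above those of miR-434-3p (16.2 to 36.9) and miR-136-5p (15.4 to 35.7). Together the 8 miRNAs held 0.717% of all reads in the control library and 0.424% in the mimic library. Because the files give reads of chimeras and not of miRNAs alone, these levels depend on both the miRNA and its targets.

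**Figure D1:**
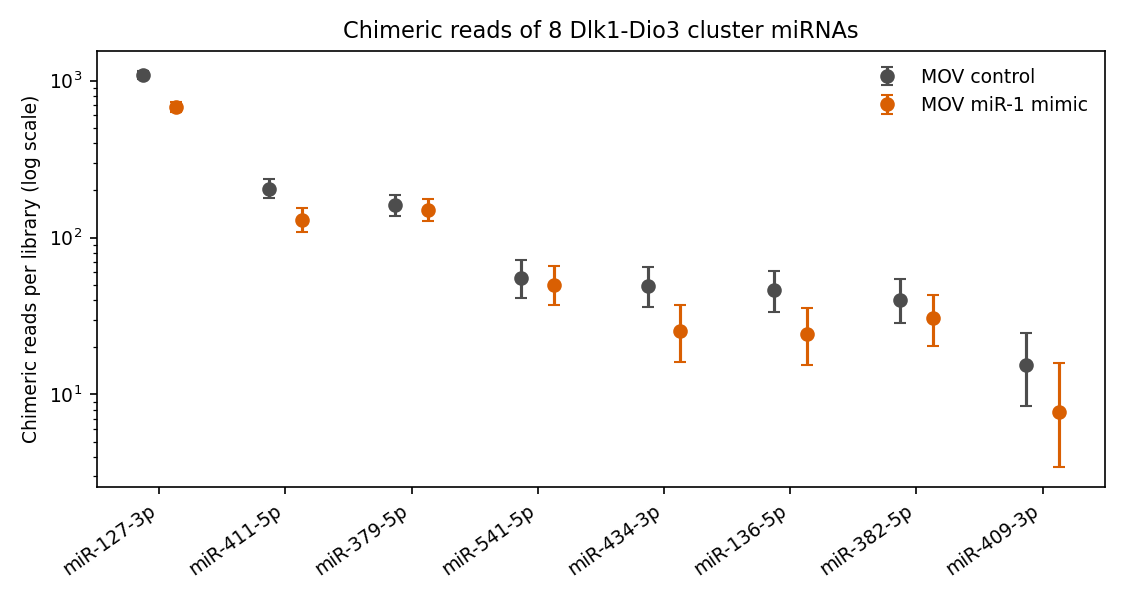
Chimeric reads of each of the 8 miRNAs (vertical axis, log scale) in the MOV control and the MOV mimic library, 1 library each; bars are 95% Poisson intervals. All 8 points are lower in the mimic, from 1093 and 682 reads for miR-127-3p to 15.4 and 7.74 reads for miR-409-3p.

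All 8 miRNAs had fewer reads and fewer lines in the mimic library. Summed, they had 1666 reads in the control against 1098 in the mimic, a mimic to control ratio of 0.659 (0.610 to 0.712), while all other miRNAs together had a ratio of 1.12. The ratio was 0.623 (0.566 to 0.687) for miR-127-3p, 0.629 (0.501 to 0.788) for miR-411-5p, 0.513 (0.302 to 0.842) for miR-434-3p and 0.526 (0.305 to 0.873) for miR-136-5p, and none of these 4 intervals reached 1. For miR-379-5p the ratio was 0.929 (0.741 to 1.17), for miR-541-5p 0.902 (0.607 to 1.36), for miR-382-5p 0.762 (0.451 to 1.23) and for miR-409-3p 0.504 (0.196 to 1.34). These last 4 intervals held 1, so a difference between the libraries was not detectable in the counts.

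These ratios were set beside those of every miRNA with 50 or more peaks in both libraries. Of these 148 miRNAs, 2.70% (4 miRNAs) had at least 1.5-fold fewer reads in the mimic, and 2 of the 4 were miR-127-3p and miR-411-5p. The other two were miR-223-3p and miR-124-3p, which lie outside the cluster. Another 3.38% (5 miRNAs) had at least 1.5-fold more reads, and none was of the 8. The median ratio of the 148 was 1.06, with the 5th and 95th percentiles at 0.764 and 1.46. With a minimum of 10 peaks, a limit chosen after the values were seen, all 8 could be placed: 8.15% (22 of 270 miRNAs) were at least 1.5-fold lower, and 5 of the 8 were among them. In whole muscle, fewer cells that make a miRNA and less of it in each cell cannot be told apart.

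The rest of the cluster had lower reads in the mimic too. Of 104 other mature miRNAs annotated between Dlk1 and Dio3, 66 had a peak in either library, 53 of them with fewer reads in the mimic and 12 with more. Their summed reads were 1074 in the control library and 788 in the mimic library, a ratio of 0.734 (0.668 to 0.805). Outside the cluster 261 of 585 miRNAs (44.6%) had fewer reads in the mimic. Where both libraries held 10 peaks or more, 29 of 30 other cluster miRNAs had a ratio under 1, against 87 of 232 miRNAs (37.5%) from elsewhere. The lowest of them were miR-136-3p, at 41.2 and 15.2 reads, and miR-381-3p, at 71.6 and 29.9 reads. The exception was miR-667-3p, with 8.64 reads in the control against 13.1 in the mimic.

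**Figure D2:**
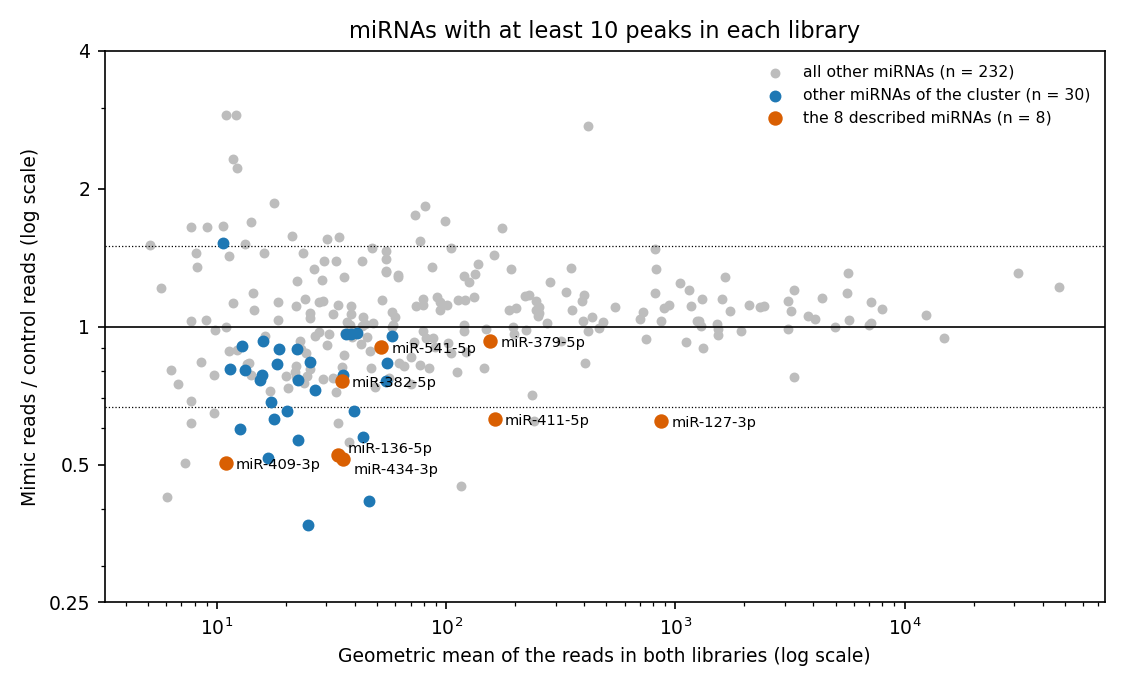
Ratio of mimic to control reads (vertical axis, log scale) against the geometric mean of the reads in both libraries (horizontal axis, log scale) for 270 miRNAs that had 10 or more peaks in both libraries; the solid line marks equal reads and the dotted lines 1.5-fold. All 8 miRNAs and 29 of 30 other miRNAs of the cluster lie under the solid line, as do 87 of the 232 other miRNAs.

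The other cluster miRNAs just described include the opposite arms of the same hairpins, 7 of 8 with fewer reads in the mimic. Their reads are part of the sums above and are no separate evidence. They had 177 reads in the control library and 110 in the mimic library in all, a ratio of 0.620 (0.485 to 0.793). For miR-127-5p the reads were 49.1 and 32.0, for miR-136-3p 41.2 and 15.2 and for miR-434-5p 31.5 and 22.9. For miR-411-3p they were 24.8 and 16.3 and for miR-379-3p 25.8 and 19.7. The opposite arms of miR-541, miR-382 and miR-409 had under 3 reads in each library. A library made from 1 muscle gives no measure of how much these ratios vary between animals.

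In the control the leading target of the 8 was H19 (chr7:142575530-142578146, minus strand, GRCm38). In the mimic H19 came after the ribosomal RNA gene Rn18s-rs5. H19 is itself an imprinted gene, a maternally expressed long noncoding RNA that is abundant in growing muscle. It held 402 reads of the 8 in the control against 186 in the mimic, and miR-127-3p accounted for 401 and 183 of them. On all of H19, miR-127-3p was the third miRNA by reads in the control, after miR-130a-3p (1296 reads) and miR-199a-5p (716 reads), and the fifth in the mimic. The ratio for miR-127-3p on H19 was 0.456 (0.381 to 0.545), while all other miRNAs had 4180 reads in the control library and 5441 in the mimic library, a ratio of 1.30 (1.25 to 1.36). Of 20 miRNAs with at least 100 reads on H19 in both libraries summed, miR-127-3p had the lowest ratio and 18 had a ratio above 1.

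Most of these reads lay in 1 window of 66 nucleotides, chr7:142576411-142576476, which is 1670 to 1735 nucleotides from the 5′ end of the gene span. The control file split it into peaks of 198 and 119 miR-127-3p reads, and the mimic file had a single peak of 146. miR-127-3p was the leading miRNA of each of these peaks, with 41.6% of the window's 763 reads in the control against 20.0% of 729 in the mimic. Next came miR-16-5p, with 118 and 123 reads. The ratio was 0.459 (0.376 to 0.562) for miR-127-3p within the window and 0.448 (0.291 to 0.656) on the rest of H19. For all other miRNAs it was 1.31 (1.16 to 1.49) within the window and 1.30 (1.25 to 1.36) outside it. The other 7 miRNAs together had 1.42 and 3.26 reads on H19.

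**Figure D3:**
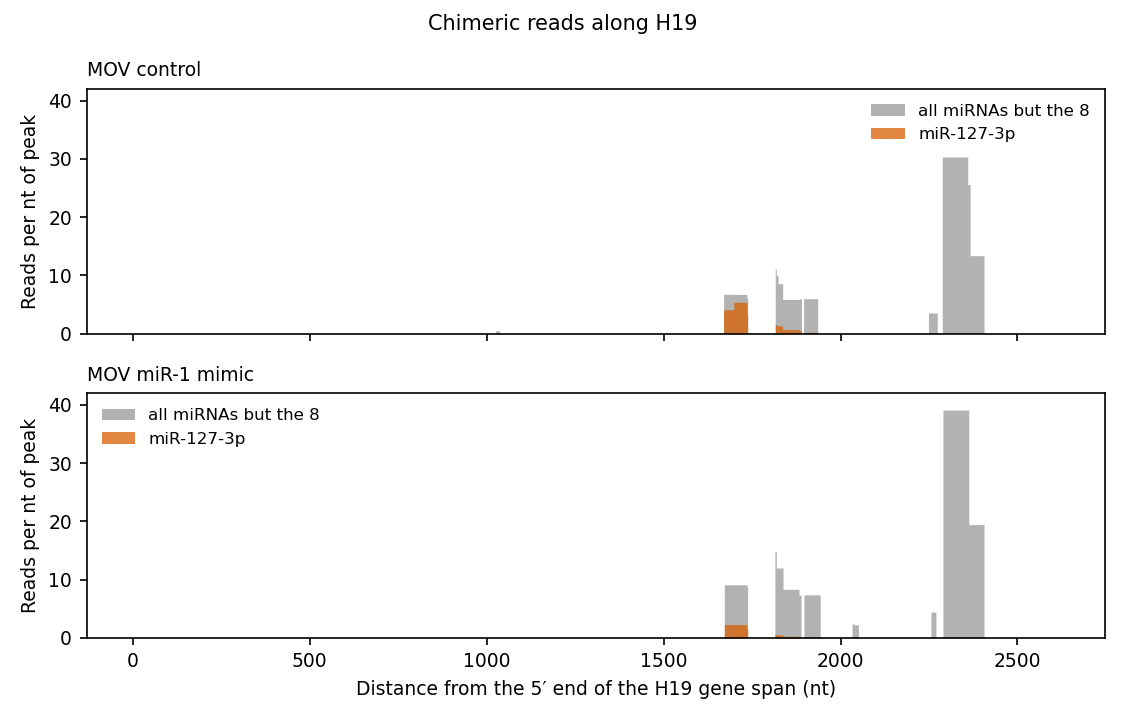
Chimeric reads per nucleotide of peak (vertical axis) along H19, by distance from the 5′ end of its gene span in nucleotides (horizontal axis), in the MOV control (top) and the MOV mimic (bottom); orange is miR-127-3p, drawn over grey, all miRNAs but the 8. The miR-127-3p reads stand at 1670 to 1735 nucleotides, with 317 reads in the control library and 146 in the mimic library, and hardly reach the highest peaks near the 3′ end.

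No other target of the 8 came near H19 apart from Rn18s-rs5, a copy of the 45S ribosomal RNA, whose reads are hard to assign because the genome holds many copies. It held 284 reads of the 8 in the control against 207 in the mimic, where it exceeded H19 (186 reads). All 8 miRNAs had a line in Rn18s-rs5. The highest peak was one of miR-127-3p at chr17:39847018-39847109, with 167 reads in the control library and 141 in the mimic library. There miR-127-3p ranked as number 3 of 124 miRNAs in the control, at 8.66% of the peak's reads. Without H19, Rn18s-rs5 and the mitochondrial chromosome, miR-127-3p still had 419 reads in the control against 298 in the mimic, a ratio of 0.710 (0.611 to 0.827).

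Among protein-coding genes, Col1a2, which encodes a chain of type I collagen, held the highest peak of miR-127-3p (chr6:4505782-4505906). It had 28.9 reads in the control library and 24.8 in the mimic library, 21.8% and 24.8% of the peak's reads, and was second among the miRNAs of the peak in both. A peak in Il6st, which encodes the shared receptor subunit of the interleukin 6 family, belonged to miR-127-3p alone in both libraries (chr13:112505562-112505670), with 8.95 and 8.58 reads. The ratios of these sites were 0.859 (0.484 to 1.52) and 0.959 (0.352 to 2.84), and both intervals held 1.

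Lars2, the mitochondrial leucyl-tRNA synthetase, held 12.7 reads of miR-127-3p at 1 peak in the control, where it led 55 miRNAs. The mimic file split that span into peaks of 9.50 and 2.57 reads, 12.07 in all, a ratio of 0.949 (0.385 to 2.19). Myh1, the fast myosin heavy chain IIx, held 17.8 reads at a peak in the control library and 6.86 in the mimic library, a ratio of 0.385 (0.137 to 0.976), while the reads of the other miRNAs at that peak changed by a log2 ratio of 1.44. Of 7 sites of miR-127-3p in Myh1 seen in both libraries, 5 were higher in the mimic, and over the whole gene the ratio was 0.675 (0.314 to 1.37), an interval that held 1. In Slc25a4, the ADP/ATP carrier of muscle mitochondria, miR-127-3p had 6.30 reads and led its peak in the control. In Tmx3 it was the sole miRNA of a peak of 4.59 reads in the control. Col5a3, a collagen gene, held a peak of 6 reads in the mimic, where miR-127-3p led. Other peaks of at least 3 reads lay in Pfn1, Prkca, Myot, Lgals1, Gnas and Rn7sk in the control and in Rab2a, Igsf10 and Fbln5 in the mimic.

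The second miRNA by reads, miR-411-5p, had no such single target. Its highest peak was in ND1, a mitochondrial subunit of respiratory complex I, with 21.7 reads in the control against 17.7 in the mimic, but this was 0.569% of the peak's reads in the control. In Dusp1, a phosphatase that switches off MAP kinases, it had 16.2 reads on 3 lines in the control library and 18.1 reads on 2 lines in the mimic library, and it was second among the miRNAs of its highest peak there (chr17:26505750-26505862) in both libraries. The ratio in Dusp1 was 1.12 (0.542 to 2.36), an interval that held both 1 and the ratio of the miRNA as a whole. ND2, another complex I subunit, held 9.72 and 3.57 reads, a ratio of 0.368 (0.0916 to 1.39). In C3, the central complement protein, the peak held 3 and 3.06 reads.

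Peaks of miR-411-5p that reached 3 reads in 1 library only lay in Cript, Mcl1, Col8a2, Pxdn, Col3a1 and Atp2a1 in the control and in Sparc in the mimic. Of these, Cript (0.716 reads), Mcl1 (0.265) and Pxdn (0.723) had a weaker peak in the mimic, and Sparc had one of 1.90 reads in the control. Col8a2, a network-forming collagen, held a peak of miR-411-5p alone (3.34 reads). In Cript miR-411-5p was the leading miRNA, with 3.89 of 7.94 reads. Each of these rests on fewer than 5 reads.

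Likewise, miR-379-5p had no dominant target. Its highest peak, in the mitochondrial ribosomal RNA mt-Rnr1, held 9.46 reads in the control library and 7.83 in the mimic library, 0.0954% of the reads of a peak that 129 miRNAs shared in the control. In COX1, a subunit of cytochrome c oxidase, 1 peak held 4.01 and 5.06 reads, 10.3% and 10.0% of the peak. In the control it led a peak in Vim, the intermediate filament vimentin, with 3.50 of 13.03 reads, and had 3.69 reads in Klhl41 and 5.91 in Acta1. miR-379-5p and miR-411-5p, which share 6 seed bases, had 44 target genes in common, 21.2% of the 208 genes of miR-411-5p and 18.0% of the 244 genes of miR-379-5p. This was not particular to that pair: miR-127-3p, whose seed is unlike theirs, shared 52 genes with miR-411-5p, 25% of those of miR-411-5p, and 57 with miR-379-5p, 23.4% of those of miR-379-5p.

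Mitochondrial sites could be read in sequence, because all 37 genes of that chromosome have the same spans in GRCm38 and in the mm9 sequence used here. They are shown with the bases that match a seed in capitals. The match to the whole miR-127-3p seed, GGATCCG, occurs once on the plus strand of the mitochondrial chromosome, and that 1 match lay inside the ND1 peak of miR-127-3p (12.9 reads in the control, 6.69 in the mimic). Of all windows of the peak's length, 0.992% hold it. miR-411-5p has no match to its whole seed on the plus strand, but bases 2 to 7 match at 2 places in its ND1 peak and 1 place in its ND2 peak, where 12.3% and 7.68% of windows of those lengths hold such a match. The mt-Rnr1 peak of miR-379-5p held 1 match to bases 2 to 7, as do 6.11% of windows. Most peaks held none: of the 16 control and 11 mimic peaks searched, the leading ones of each miRNA with at least 2 reads, 7 and 5 held a match to bases 2 to 7, and the ND1 peak of miR-127-3p alone held one to the whole seed. Without either match were the mt-Rnr2 peak of miR-127-3p (28.8 and 14.7 reads), the COX1 and ND1 peaks of miR-379-5p (3.49 and 3 reads in ND1) and the mt-Rnr1 and COX1 peaks of miR-411-5p. So were the mt-Rnr2 and CYTB peaks of miR-541-5p and the mt-Rnr2 peaks of miR-382-5p at chrM:1823-1849 and chrM:1850-1888. The matches of miR-434-3p in mt-Rnr2 and of miR-382-5p in ND1 and mt-Rnr2 are counted but not shown.
miR-127-3p, ND1, chrM:3547-3572, plus: tatcatcaacattcctatGGATCCGa
miR-411-5p, ND1, chrM:3492-3517, plus: tatatcaatttaccagaacTCTACTc
miR-411-5p, ND1, chrM:3520-3545, plus: ctaacttcataatagaagcTCTACTa
miR-411-5p, ND2, chrM:4752-4777, plus: cactcatagcaataatagcTCTACTa
miR-379-5p, mt-Rnr1, chrM:629-654, plus: tataatcgataaaccccgcTCTACCt

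The rarer miRNAs had few strong sites. For miR-434-3p the only peak of at least 3 reads was in Rn18s-rs5, with 13.2 reads in the control against 7.97 in the mimic, and this gene held 36.03% and 36.2% of its reads. miR-136-5p had 7.15 reads in the skeletal actin gene Acta1 in the control, in a peak of 5 nucleotides where it led, and no line in Acta1 in the mimic. It had 3.59 reads in Ttn, the giant sarcomere protein titin, and in the mimic its highest peak was in Camk1d with 2 reads. miR-541-5p had 3 and 4.81 reads at a Col3a1 peak and, in the mimic, 3.43 reads in Tpm2, a tropomyosin, where 3 control lines under that peak summed to 3.15.

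Collagens and mitochondrial RNAs held most of the miR-382-5p reads in the control library, though only 11 of its 35 lines. Extracellular matrix genes held 23.2% of its reads in the control library and 42.7% in the mimic library, and the mitochondrial chromosome 38.2% and 11.6%, while genes in none of the named classes held 31.1% and 36.4%. In Col3a1, which encodes type III collagen, a peak held 3 reads in the control against 7.61 in the mimic, and in Col1a1, of type I collagen, 4.64 and 3. With 40.0 and 30.5 reads in all, these shares rest on few reads. miR-409-3p had no line of 3 reads, and its highest peak, of which it was the sole miRNA, was in Tmem167 with 2.28 reads in the control.

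Sorted by class of target, miR-127-3p and the other 7 miRNAs were unlike. H19 held 36.7% of the miR-127-3p reads in the control library and 26.8% in the mimic library, against 0.248% and 0.783% for the other 7 miRNAs together and 1.8% and 2.1% for all miRNAs but the 8. Rn18s-rs5 held 20.9% and 25.3% of the miR-127-3p reads. The mitochondrial chromosome held 16.2% of the reads of the other 7 in both libraries, and 13.7% and 13.4% of those of all remaining miRNAs. Sarcomere genes held 6.64% and 6.43% of the reads of the 8, against 19.8% and 22.7% for all remaining miRNAs. For miR-127-3p these shares were 4.87% and 5.71%, and for the other 7 they were 10.0% and 7.61%. By lines the 8 were not below the rest, at 14.6% and 12.9% of the lines of the 8 against 11.5% and 12.9%. Extracellular matrix genes, leaving out Dcn, which is also imprinted, held 4.81% and 6.76% of the reads of the 8, against 4.34% and 3.62%. They held 3.69% and 4.86% of the miR-127-3p reads and 6.94% and 9.85% of those of the other 7.

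**Figure D4:**
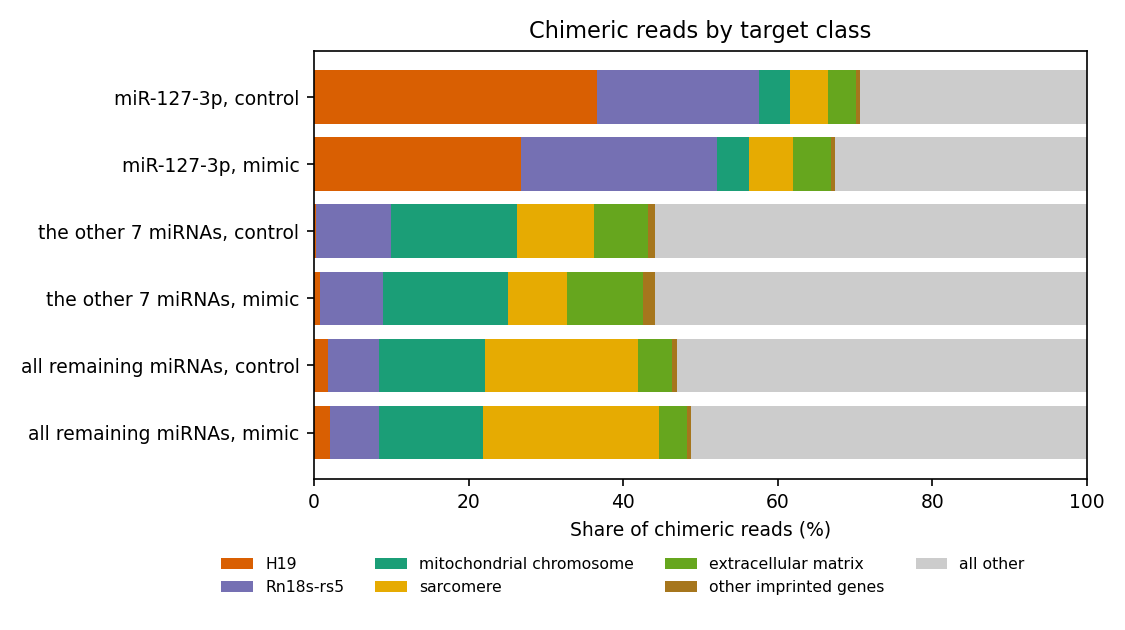
Share of chimeric reads (horizontal axis, %) in each class of target for miR-127-3p, the other 7 miRNAs and all remaining miRNAs, in each library; genes in none of the named classes are grey. H19 fills 36.7% and 26.8% of the miR-127-3p bars and little of the others, and the sarcomere fills 19.8% and 22.7% of the bars of the remaining miRNAs.

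Of all genes with a peak of any miRNA, 9.16% in the control (606 of 6618) and 7.08% in the mimic (488 of 6895) had a peak of one of the 8. By gene list, 21 of 26 sarcomere genes had a peak of one of the 8 in the control against 18 in the mimic. The highest were Ttn, with 27.6 and 26.6 reads, and Myh1, with 25.4 and 17.2. Of 27 annotated extracellular matrix genes, 20 and 18 had a peak, led by Col1a2 with 31.1 reads in both libraries, Col3a1 with 15.1 and 18.8, and Col1a1 with 7.89 and 5.06. Sparc, a collagen-binding matrix protein, had 2.64 and 6 reads. Of 10 genes of calcium handling, 4 and 7 had a peak. Atp2a1, the calcium pump of fast fibres, had 7.87 reads in the control library and 1.78 in the mimic library.

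Of 14 growth signalling genes, 10 and 13 had a peak of any miRNA. Igf1, Igf1r, Insr and Tsc2 had peaks of the 8 in the control, with 4.42 reads in all on 7 lines, and none had one in the mimic, counts too low to show a difference. Of 39 annotated imprinted genes, 22 and 23 had a peak of any miRNA and 7 and 5 a peak of the 8. Besides H19, Gnas had 3 reads in the control against 2.84 in the mimic, and Dcn, the matrix proteoglycan decorin, 2.91 against 6.01, and the rest had under 3. None of the 6 locus genes Dlk1, Meg3, Rtl1, Rian, Mirg and Dio3 had a peak of the 8 in either library, so the pairing of miR-127-3p with Rtl1 was not seen here. Other miRNAs had peaks in 2 of these genes, with 0.0299% and 0.0236% of their reads. Of Rtl1, Bcl6, Kmt5a, S1pr3 and Eif5a, genes known as targets of the 8 from other work, only Bcl6 had a line, with 0.529 reads in the control.

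All 8 marker genes of muscle fibres had peaks of the 8 miRNAs in both libraries. All 5 fibroblast markers also had such peaks, with 59.0 reads in the control library and 62.0 in the mimic library, while the fibre markers had 83.9 and 57.4. As shares of the reads of the 8 these were 3.54% and 5.65% for the fibroblast markers and 5.03% and 5.23% for the fibre markers. Among all remaining miRNAs the fibroblast markers held 2.04% and 1.75% of reads and the fibre markers 16.3% and 19.1%. No marker of muscle progenitors, leukocytes, endothelium, Schwann cells or red blood cells had a peak of the 8. For all remaining miRNAs each of these 5 lists held at most 0.0152% of reads. Whether the cell makeup differed between the muscles was not tested.

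In all, the 8 miRNAs had peaks in 606 genes in the control against 488 in the mimic, and 176 genes were common to both. Genes in common were not counted for all other miRNAs, so this overlap has no background here. Most genes were reached by 1 of the 8 (750 of 918), and 20 genes by 4 or more. By reads, the mitochondrial ribosomal RNAs mt-Rnr2 (45.9 and 22.7) and mt-Rnr1 (16.9 and 15.3) stood with ND1 (44.7 and 29.96) among the leading genes. All 8 had a line in Rn18s-rs5 and 7 in Col3a1 and ND5. Only 33 and 22 genes had a line of at least 3 reads, and these lines held 55.4% and 47.5% of the reads of the 8. Such lines were 58 of 1099 and 35 of 828, against 10777 of 92369 and 11456 of 100069 for all other miRNAs.

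Sites recurred between the libraries when they were strong. Of control lines of at least 3 reads, 46 of 58 (79.3%, 66.6 to 88.8%) overlapped a mimic line of the same miRNA, close to the 84.4% of all other miRNAs. Under 1 read, 98 of 719 did (13.6%, 11.2 to 16.4%), against 23.4% of all other miRNAs. For miR-127-3p alone 25 of 29 strong lines recurred, for miR-411-5p 8 of 12, for miR-379-5p 5 of 7 and for miR-382-5p 5 of 5. Over all lines 19.5% of those of the 8 recurred and 35.7% of those of other miRNAs.

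At the 190 sites seen in both libraries the log2 ratio of mimic to control had a median of -0.19 (-0.36 to 0), and at 30923 sites of all other miRNAs it was 0.05. With at least 3 reads in both libraries there were 25 sites of the 8, of which 20 were lower in the mimic. Their median was -0.30 (-0.73 to -0.21), against 0.12 for 6283 sites of other miRNAs, 41.8% of which were lower. All 14 such sites of miR-127-3p were lower, and 6 of the 11 sites of the other 7. Over all 92 shared sites of miR-127-3p, mostly of few reads, 48 (52.2%) were lower and the median was -0.08 (-0.39 to 0.16). Of all shared sites of other miRNAs 44.9% were lower. At least 1.5-fold lower were 10 of the 25, against 15.4% of all 6308 sites of this depth, and at least 1.5-fold higher were 2, against 24.5%. The files drew peak borders separately, so overlapping peaks of a miRNA were also merged over both libraries, a choice made after the data were seen. Then 20 of 26 sites of at least 3 reads were lower, with a median of -0.26 (-0.74 to -0.08), among them all 14 of miR-127-3p and 6 of the other 12. For other miRNAs 2719 of 6368 merged sites of this depth were lower. Several sites of the 8 lie in 1 RNA or under 1 peak, so they are not independent.

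The 5 lowest ratios, before peaks were merged, began with miR-127-3p at a site in Rn18s-rs5 (19.5 and 6.67 reads). Then came miR-127-3p in H19 at chr7:142576262-142576309 (32.8 and 11.6 reads), miR-411-5p in ND2, and miR-127-3p in Myh1 and in mt-Rnr2. At each of these 5 sites the other miRNAs of the peak had a log2 ratio above 0, from 0.09 to 1.44. The 5 highest were miR-382-5p and miR-541-5p in Col3a1, at 2.54 (0.640 to 15.6) and 1.60 (0.324 to 10.7), miR-379-5p in COX1 at 1.26, and miR-411-5p in Dusp1 at 1.15 and in C3 at 1.02. Both Col3a1 intervals held 1.

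**Figure D5:**
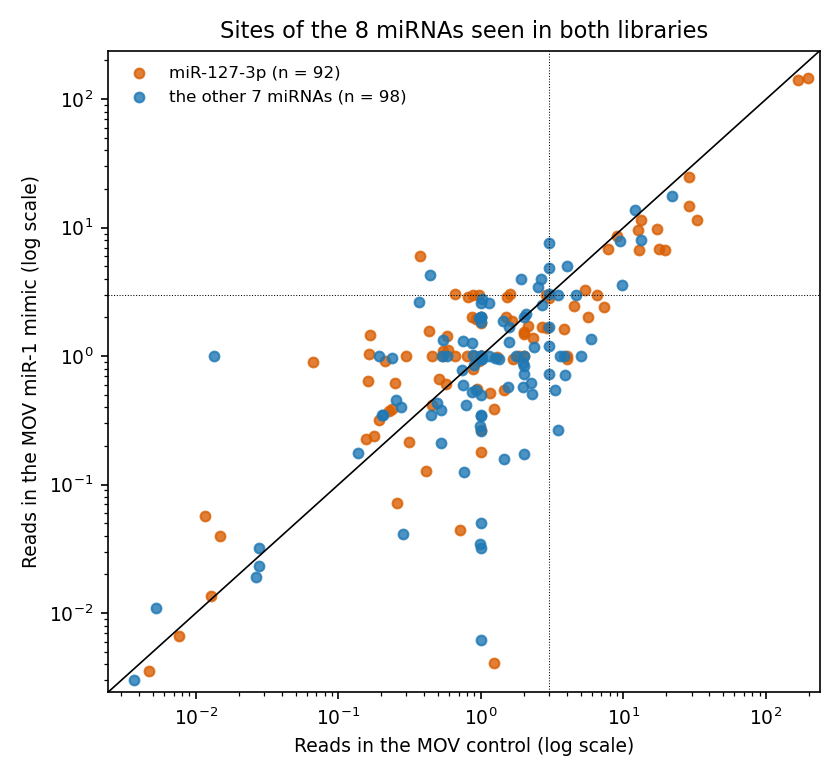
Reads in the MOV mimic (vertical axis, log scale) against reads in the MOV control (horizontal axis, log scale) at the 190 sites of the 8 miRNAs seen in both libraries; the solid line marks equal reads and the dotted lines 3 reads. Right of and above the dotted lines, the 14 miR-127-3p sites lie under the solid line, and the sites of the other 7 lie on both sides.

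The 8 miRNAs seldom led the peaks they were found in. They had the most reads of all miRNAs on 12.2% (10.3 to 14.3%) of their lines in the control and 12.7% (10.5 to 15.1%) in the mimic, against 23.1% and 22.4% for all other miRNAs. Their peaks held a median of 8 and 9 miRNAs, against 5 and 6. miR-127-3p led 15.1% and 14.8% of its lines, and miR-541-5p none of 74 in the control (0 to 4.86%) and 5 of 66 in the mimic. More than 1 of the 8 stood in 77 of 968 peaks in the control library and 58 of 739 in the mimic library. Without the mitochondrial chromosome and Rn18s-rs5 these were 54 of 940 and 34 of 703.

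The messenger RNAs of target genes held more seed matches than other transcripts for each of the 8, as a description with no test. For miR-127-3p the match GGATCCG stood at 0.0384 per kb in 418 target genes and 0.0266 in 6424 genes with peaks of other miRNAs only, and 14.1% and 9.59% of the genes had a match. For miR-411-5p, GTCTACT stood at 0.0861 against 0.0392 per kb, and for miR-379-5p, GTCTACC at 0.0641 against 0.0414. Relative to the density in the other transcripts, the smallest gap was that of miR-136-5p, AATGGAG, at 0.122 against 0.109 per kb. In the genes where the miRNA led a peak, the density was higher than over all its targets for 6 of the 8. It was 0.122 per kb for miR-379-5p (22 matches in 44 genes) and 0.114 for miR-411-5p (14 in 30). It was lower for miR-434-3p (0.0959 against 0.111) and miR-409-3p (0.147 against 0.181), on 4 matches in 6 genes and 3 in 4. For miR-541-5p, miR-382-5p and miR-136-5p there were 3 matches in 4 genes, 4 in 5 and 5 in 6. Densities from so few matches say little. These matches lie anywhere in the longest GENCODE transcript of the gene and not under the peak.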

How the data were processed

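The deposited values were estimated counts, chimeric reads of 1 miRNA in 1 peak, mostly fractions of unstated origin; their totals differ between the libraries, and no scaling to depth by the authors is named. Per the methods, the authors trimmed adapters, removed repetitive elements and PCR duplicates, aligned reads with STAR and called peaks. The submitters' processing notes name UMI-tools 1.1.1, cutadapt 3.2, STAR 2.7.7a, Bowtie 1.2.3 and HOMER 4.11. They name mm10 and the methods mm9. The coordinates are those of mm10 (GRCm38). The methods also describe amplification with a miR-1 primer, which could change the share of other miRNAs.

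Here reads were summed per miRNA with no scaling. Genes were RefSeq GRCm38.p6 spans with the largest overlap on the same strand. Exons were not used, so whether a site in a gene lies in its messenger RNA or in an intron was not analysed. Intervals were exact Poisson, Clopper-Pearson, conditional binomial for ratios (reads rounded) and order-statistic for medians, computed with SciPy 1.17.1. Those of ratios and medians were tested on simulated whole counts and independent values. Their coverage for sums of fractions, or for sites that are not independent, was not tested. Peaks were shared with at least 1 common nucleotide. No test between the 2 libraries was possible. The genes named were the leading ones by reads, per miRNA and together, the sites with the most extreme ratios, and list genes with a line of at least 3 reads; some others were named after their values were seen. The miRNAs and gene lists were chosen with earlier results of these data known. Sequence at nuclear sites was not used here.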

Additional observations from a re-analysis of the deposited data

How the results depend on the processing

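No paired analysis was possible because the MOV control and the MOV mimic had 1 library each, and no replicate could be left out. Together the 8 miRNAs stayed lower in the mimic under every setting run, with ratios of 0.591 after division by library totals, 0.566 with at least 3 reads per line, 0.722 without H19 and 0.727 without miR-127-3p, a setting added after the data were seen. The ratio of 2 single miRNAs turned: miR-541-5p to 1.21 with at least 3 reads per line, where it had 2 lines in each library, and miR-382-5p to 1.11 without the mitochondrial chromosome and Rn18s-rs5. With at least 3 reads per line the ratio of miR-379-5p also moved, from 0.929 to 0.481 (33.1 and 15.9 reads), and miR-136-5p had 10.7 reads in the control and none in the mimic. By lines in place of reads, sarcomere genes held 14.6% and 12.9%. Merging overlapping peaks, an added setting, brought the median log2 ratio at shared sites from -0.19 to -0.08. With a minimum of 10 peaks, also added later, 5 miRNAs were at least 1.5-fold lower in place of 2.

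Requiring at least 3 reads per line left 58 and 35 lines, 922 and 522 reads, and 33 and 22 genes in the control and the mimic. It lowered the share of lines to 0.535% and 0.305% and of reads to 0.573% and 0.285%, and raised the share of leading lines to 22.4% and 20.0%. That last share was not computed for other miRNAs at this limit, so it has no background here. Without the mitochondrial chromosome and Rn18s-rs5 there were 1244 and 796 reads, 1.105% and 0.759% of lines, and 0.672% and 0.383% of reads. Without miR-127-3p the other 7 held 0.657% and 0.460% of lines, 0.246% and 0.161% of reads, and 0.248% and 0.783% of their reads were on H19. By lines in place of reads H19 held 1.91% and 1.93%. The share of control lines that recurred in the mimic was 14.7% with 50% reciprocal overlap, 79.3% with at least 3 reads, and 72.9% when any miRNA at the overlapping peak counted. Depth is the main limit: most lines hold less than 1 read, and a site of few reads says little about its change.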
